A study of Sus scrofa with 24 samples.

Results

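The comparison of 120d with 1d covers the spleens of 3 healthy Meishan pigs killed at 120 days after birth and of 3 killed at 1 day after birth, with 1 sequencing library per pig. The members are all 3000 circRNAs of the deposited count table, tested between these 6 of the 24 libraries of the series, and the changed ones were grouped by the function of their host genes. All pigs were of the Meishan breed, an indigenous Chinese breed, and no treatment was given. Each stage holds different animals, so age was compared between pigs and not within them. The labels name an RNeasy extraction and a TruSeq Stranded kit, whereas the methods of the study name TRIZOL, a NEBNext directional kit and, before it, RNase R to digest linear RNA, and which of these was used was not settled.

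CircRNAs are closed RNA rings that form when the end of an exon is joined back to the start of the same exon or of an exon upstream. Reads that cross this back-splice junction are found in the ring and not in the linear mRNA of the gene. The spleen filters blood in its red pulp, where old erythrocytes are removed, and its white pulp holds B and T lymphocytes. In newborn mammals it can still make blood cells, and its lymphoid follicles grow after birth. The files hold whole spleen tissue, where fewer cells of a type and less RNA per cell cannot be told apart.

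The deposited table gave 71092 to 87867 back-splice reads per library at 120d and 16273 to 23752 at 1d, with 2950 to 2975 and 2232 to 2549 circRNAs detected. Per M clean reads this was 754 ± 115 back-splice reads at 120d and 183 ± 31.6 at 1d (SD, n = 3 each). The ratio was 4.12 and the stages did not overlap (two-sided exact permutation test, p = 0.1, the smallest that 3 against 3 can give). Every circRNA of the table had reads in at least 16 of the 24 libraries. Counts of 1 did not occur, the smallest count above 0 being 2, and the reason is not given. Pairs of 120d libraries correlated at 0.832 to 0.845 (log2 CPM over circRNAs), pairs of 1d libraries at 0.577 to 0.596, and pairs of 1 library from each stage at 0.529 to 0.619. Of the 120d libraries 2 of 3 kept less than a share of 0.96 of their bases after trimming, against 0 of 3 at 1d, and the GC content of the reads did not overlap between the stages; with valid bases or GC content as a covariate the calls were 59 higher and 20 lower, or 74 and 26. None of the defining cell type markers reported here (CD3E, CD8A, MS4A1, CD79A, PAX5, CD163, CSF1R, HBB, SLC4A1, STAB2, PRSS1 and ADIPOQ) hosted a circRNA in the table, so the tissue label could not be checked against them.

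Of the 3000 junctions, 2848 had both ends at exon ends of 1 gene of the RefSeq annotation of Sscrofa11.1 (1675 host genes). The junctions below are those of circRNAs that carry the comparison, 7 that were higher at 120d and 6 that were lower. Each is 30 bases read from the genome in the direction of the transcript, with the end of the last exon of the ring in lower case and the start of its first exon in capitals, so the capitals mark where the ring closes. They are those of the T and NK cell receptor CD96, the antigen-processing protease CTSS, the B cell scaffold BANK1, the ubiquitin ligase MYCBP2, the deubiquitinase USP3, the kinase STK17A and the nucleotide synthesis protein PRPSAP2, followed by those of the transferrin receptor TFRC, the histone methyltransferase NSD2, the transcription factor GLIS3 (a pair of rings that end at the same exon), the chaperonin subunit CCT3 and the replication licensing ligase subunit DTL.
CD96 circRNA_11685 (exons 4 to 5, chr13:148164225-148168420, minus strand): gatgtccttggaaagGAGGGTAATGGAACG
CTSS circRNA_26897 (exons 3 to 4, chr4:98422323-98423402, plus strand): gaagtgaaataccagAATGAGGAAGTAGCA
BANK1 circRNA_36034 (exons 6 to 7, chr8:118986952-118997791, minus strand): tttgaggagttttccAATGACATTGATGGA
MYCBP2 circRNA_06898 (exons 6 to 7, chr11:49379795-49380340, minus strand): ttagggtatgctcagGTGCCAATGATACTA
USP3 circRNA_01497 (exons 2 to 4, chr1:108482616-108486823, minus strand): ctacagtacatattgTGTGCCGGTCCAACA
STK17A circRNA_20191 (exons 2 to 3, chr18:51340815-51349397, minus strand): catcttgatctgaagGGGGAAATTTGCAGT
PRPSAP2 circRNA_08862 (exons 2 to 4, chr12:60375325-60376920, minus strand): aggagcccgacagagGAGGAATTTTGTTGT
TFRC circRNA_11343 (exons 9 to 10, chr13:133986643-133987630, plus strand): acatggtcataaaagAAATATGGAACAAGA
NSD2 circRNA_34504 (exons 2 to 9, chr8:964857-992003, plus strand): ctcactgagaatgagTGCTCTGAGCACGGG
GLIS3 circRNA_03546 (exons 4 to 5, chr1:217786693-217794582, plus strand): cccaataagtgttcgGGGCTCTTGGCTTTG
GLIS3 circRNA_03547 (exon 5 alone, chr1:217793463-217794582, plus strand): cccaataagtgttcgGTCCCTTATTTCCCG
CCT3 circRNA_26742 (exons 5 to 8, chr4:93738637-93747422, plus strand): aaaggagaaagccagATTCAAGTACAGCAT
DTL circRNA_38617 (exons 2 to 5, chr9:131264261-131268491, minus strand): ctaagtttgagaaagGATGGTCTTCACAAT

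Between 120d and 1d, 139 circRNAs were higher at 120d (4.63% of those tested) and 44 were lower (1.47%), by edgeR's quasi-likelihood test with a Benjamini-Hochberg adjusted p over the 3000 below 0.05 and at least a 2-fold difference. In all 183 were called (6.1%), and 207 passed the adjusted p alone (6.9%). Scaling was by TMM, which sets each circRNA against the bulk of the table, so a fall is a fall relative to the other circRNAs. The split between rises and falls depended on that scaling: the calls were 88 higher and 55 lower with DESeq2 size factors, 68 and 66 with library totals, and 1969 and 3 per clean read. Other changes of the processing moved it too, to 96 and 85 with the DESeq2 Wald test, 90 and 59 after a filter on low counts, and 46 and 36 after all libraries were thinned to the smallest total. Over all circRNAs the median log2 fold change was 0.26 with TMM, -0.02 with library totals and 1.99 per clean read, where 18 of the 44 falls had a log2 fold change above 0. All 139 rises were also called per clean read, and of the falls 3 were: ALMS1 circRNA_24166, TFRC circRNA_11343 and SIMC1 circRNA_21581, the last named after its values were seen (-3.89, SE 0.75, adjusted p 0.00035, and -4.68 without 120d replicate 1). The libraries of the stages did not overlap for 137 of the 139 rises and 42 of the 44 falls, against 18.8% and 8.9% of all circRNAs with libraries apart in these directions. The calls were made on these same libraries, so this separation is no further evidence for them. Of the rises 33 were listed at 0 in all 1d libraries, and their bounded folds, the 120d mean over the floor, ran from 1.22 to 5.56. By this bound 14 of the 33 reached the 2-fold minimum, but it does not take in the spread between the 120d pigs. With each pig left out in turn, 44 of the rises and 15 of the falls kept an adjusted p under 0.05 in all 6 fits, and the numbers of higher and lower calls were 70 and 26, 81 and 21, or 142 and 29 when 1d replicate 1, 2 or 3 was left out. They were 100 and 23 or 98 and 27 when 120d replicate 1 or 2 was left out.

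**Figure D1:**
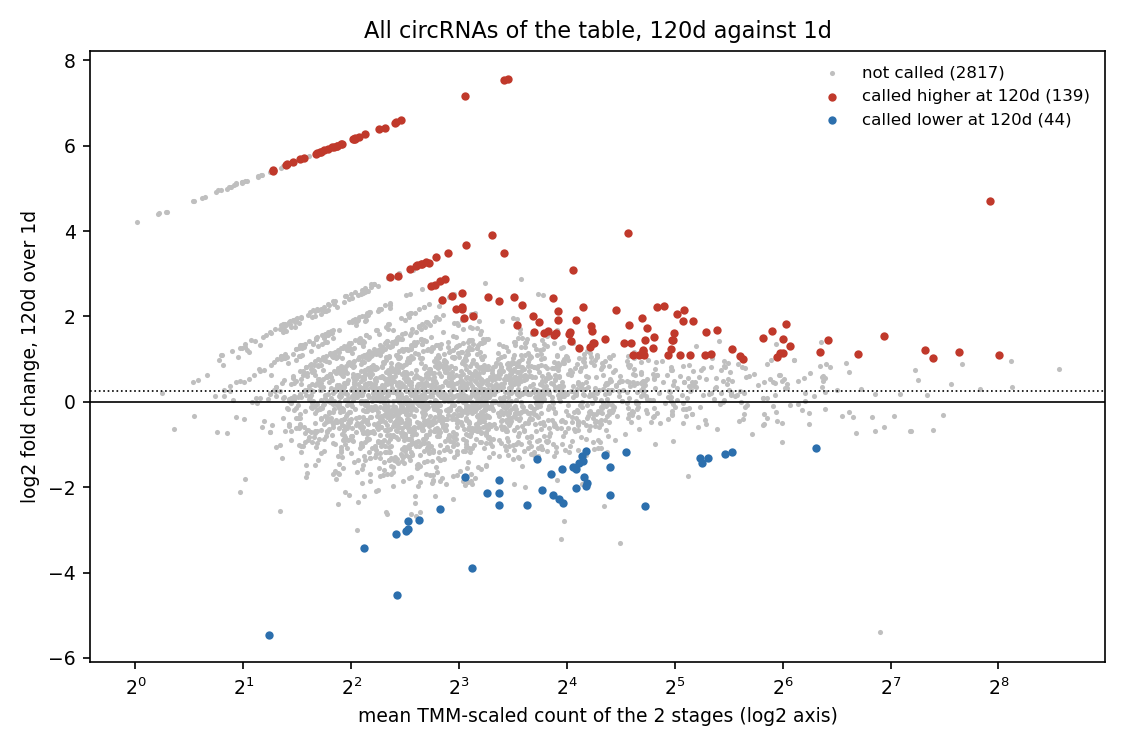
Each point is 1 of the 3000 circRNAs, with the mean TMM-scaled count of the 120d and 1d libraries on a log2 x axis and the log2 fold change of 120d over 1d on the y axis. The 139 circRNAs called higher at 120d are red, the 44 called lower are blue, and the dotted line is the median of all circRNAs, 0.26. The bands of points at the upper left are circRNAs listed at 0 in 1d libraries, whose fitted fold changes are not bounds.

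CD96, a receptor of T and NK cells, had 48.0, 44.1 and 42.1 TMM-scaled counts of circRNA_11685 in the 120d spleens, against 0, 3.29 and 4.52 in the 1d spleens (log2 fold change 3.94, SE 0.59, edgeR adjusted p 1.7e-05). The 120d values lay close together and far above each 1d value, and without 1d replicate 3 the log2 fold change was 4.58. CTSS, which cuts the invariant chain of MHC class II in antigen-presenting cells, had 46.1, 50.5 and 70.2 counts of circRNA_26897 at 120d and 11.9, 9.88 and 15.1 at 1d (2.16, SE 0.37, adjusted p 8.5e-05). A junction within CR1, complement receptor 1, whose ends match no pair of annotated exon ends (circRNA_37493, chr9:68044952-68045673), had 28.2, 25.5 and 12.1 counts at 120d and was listed at 0 in each 1d spleen, at least 5.56-fold higher against the floor of 7 counts over 3 libraries (adjusted p 1.7e-05). An adhesion receptor gene annotated as ADGRE2-like (LOC100516957), of a family found on myeloid cells, had the highest mean of the circRNAs called, and averaged 349.8 ± 80.6 counts at 120d and 163 ± 46.4 at 1d (SD, n = 3 each, edgeR log2 fold change 1.10, SE 0.21, adjusted p 0.000465). TMEM154, a transmembrane protein, had 53.7, 44.7 and 43.6 counts at 120d and 3.98, 13.2 and 12.1 at 1d (2.22, SE 0.41, adjusted p 0.000245). These 5 circRNAs kept an adjusted p under 0.05 with each pig left out, although LOC100516957 was under the 2-fold minimum without 120d replicate 1 (0.89) or 1d replicate 2 (0.92).

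The B and plasma cell list had 10 circRNAs of 7 host genes, of which 2 passed the test, both higher at 120d, with a median log2 fold change of 1.21 against 0.26 for all circRNAs (all circRNAs at the adjusted p alone: 5.23% higher, 1.67% lower). Of the 10, 2 had a log2 fold change below 0. BANK1, an adaptor of B cell receptor signalling, had 13.7, 20.9 and 12.6 counts at 120d and 0, 0 and 3.01 at 1d (3.67, SE 0.80, adjusted p 0.00193). Only 1d replicate 3 had reads among the 1d spleens, so the size of this rise rests on that library. CD22, a lectin that dampens B cell receptor signals, had 49.4, 34.8 and 32.0 counts at 120d and 13.9, 14.8 and 13.6 at 1d (1.45, SE 0.40, adjusted p 0.0187). The stages did not overlap for CD22, but its adjusted p was 0.0922 without 120d replicate 1 and 0.0649 to 0.075 without any 1 of the 1d spleens. Outside the list, LOC100152824, annotated as Fc receptor-like protein 1, had 27.8, 20.9 and 10.2 counts at 120d and 7.96, 4.94 and 0 at 1d (2.26, SE 0.62, adjusted p 0.0162), with an adjusted p of 0.0979 when 120d replicate 1 was left out, and of 0.0558 or 0.119 when 1d replicate 2 or 3 was (log2 fold change 1.64 without the third 1d pig and 2.99 without the first). FAM129C, a gene known from B cells, had 21.7, 17.4 and 13.6 counts at 120d and 0, 3.29 and 6.03 at 1d (2.35, SE 0.68, adjusted p 0.0254). Its adjusted p was 0.0812 when 120d replicate 1 was left out and 0.143 or 0.107 when 1d replicate 1 or 2 was. Without 1d replicate 3 its log2 fold change was 3.23. LOC100152824 and FAM129C were named for being among the 12 largest rises, so their direction was set by that choice.

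CircRNA_24032 had the largest difference in counts of the circRNAs called, 436, 608 and 359 counts at 120d and 13.9, 11.5 and 27.1 at 1d (log2 fold change 4.70, SE 0.93, adjusted p 0.00557), with the 120d spleens far above those of 1d. It spans chr3:57235342-57272274 and covers 4 genes known only by LOC numbers, of which LOC100736878 and LOC110259980 are annotated as V segments and the others as lncRNAs. A copy of the bases beside the junction lies within 500 kb, where ordinary splicing could join it. Whether the reads come from a ring or from linear RNA, and from which position, is therefore uncertain. Of the 120d libraries only replicate 1 had a valid base share of at least 0.96, so a fit on such libraries cannot show the spread at 120d.

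The T and NK cell list had 4 circRNAs of 4 host genes, with CD96 the 1 past the test and a median of 0.25. The macrophage, monocyte and granulocyte list had only 2 host genes, CTSS being the 1 past the test. The list of innate signalling, interferon and cytokine receptor genes had 21 circRNAs of 16 host genes, of which 4 rose (19.0%) and 0 fell, with a median log2 fold change of 1.33. Over all circRNAs 5.23% rose and 1.67% fell. PARP14, an ADP-ribosyltransferase induced by interferon, had 7.53, 6.38 and 6.78 counts at 120d and was listed at 0 at 1d, at least 1.75-fold higher (adjusted p 0.0155). EIF2AK2, the kinase PKR that senses double-stranded RNA, had 9.89, 5.80 and 17.4 counts at 120d and was also listed at 0 at 1d, at least 2.80-fold higher (adjusted p 0.00199). IL27RA, a cytokine receptor of T cells, had 47.1, 42.9 and 48.9 counts at 120d and 17.9, 18.1 and 15.1 at 1d (1.44, SE 0.40, adjusted p 0.0194). The call of PARP14 was lost without any 1 of the 1d spleens (adjusted p 0.052 to 0.0619), as was that of IL27RA (0.0706 to 0.0723, and 0.052 without 120d replicate 3), while EIF2AK2 kept its call. With counts thinned to the smallest library, 0 members of this list passed the test. EIF2AK2 was also the 1 of 46 circRNAs that rose in the translation and tRNA list, where 0 fell.

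**Figure D2:**
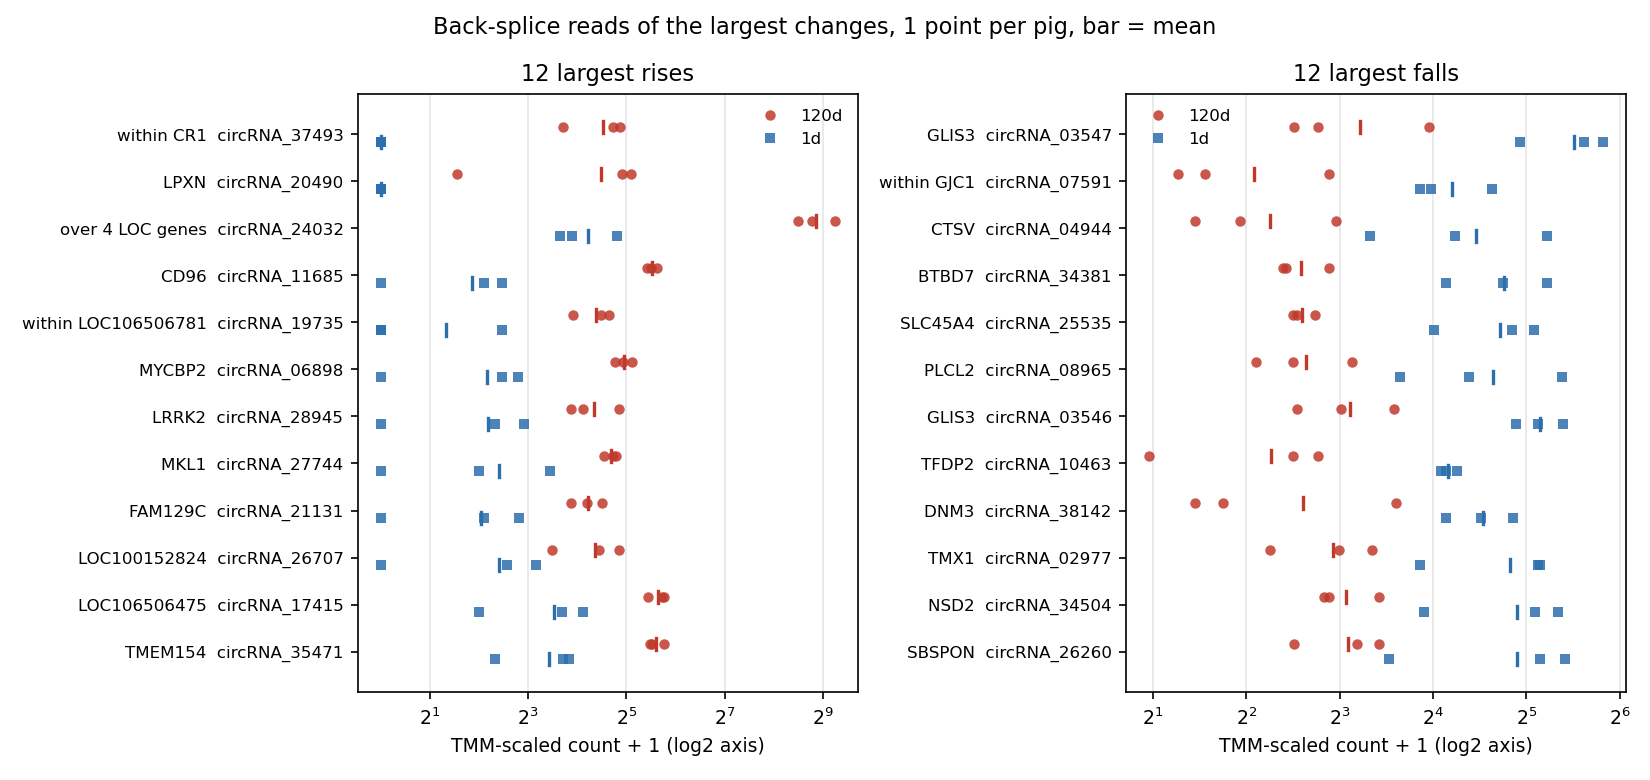
TMM-scaled counts plus 1 on log2 axes for the 12 largest rises (left) and the 12 largest falls (right), with 1 red circle for each 120d pig above 1 blue square for each 1d pig, and short bars at the stage means. CD96 sits at 42.1 to 48.0 counts at 120d and 0 to 4.52 at 1d. In each row the points of the stages are apart, which the choice of these circRNAs required.

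Of 202 circRNAs of chromatin modifiers and remodellers 8 rose (3.96%) and 4 fell (1.98%), near the 5.23% and 1.67% of all circRNAs, with a median log2 fold change of 0.23. KDM7A, a histone demethylase, had 48.0, 56.8 and 51.3 counts at 120d and 17.9, 8.23 and 12.1 at 1d (2.05, SE 0.39, adjusted p 0.000465). TLK1, a kinase of histone chaperones, had 251, 229 and 345 counts of circRNA_16048 at 120d and 119, 114 and 131 at 1d (1.18, SE 0.21, adjusted p 0.000115, and 0.98 without 120d replicate 3). PHF21A, a reader of unmethylated histone H3, reached a log2 fold change of 0.96 (SE 0.19) and so stayed under the fold change minimum. The 4 falls were EZH2, the methyltransferase of histone H3 lysine 27, and NSD2. NSD2, the methyltransferase of histone H3 lysine 36, had 3 circRNAs in the table and each fell. For circRNA_34504 of NSD2 the counts were 6.12, 6.38 and 9.69 at 120d and 13.9, 39.5 and 33.1 at 1d (-1.97, SE 0.44, adjusted p 0.00236), with 1d replicate 1 nearest to the 120d spleens. The sum over the NSD2 circRNAs was 18.4, 19.7 and 25.2 counts at 120d and 61.7, 79.0 and 70.8 at 1d (-1.83, SE 0.27). CircRNA_34510 of NSD2 lost its call without 120d replicate 1 (adjusted p 0.163) and without any 1 of the 1d spleens (0.0538 to 0.0873), and circRNA_34502 without 120d replicate 2 (0.0647) or 1d replicate 1 (0.115).

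Genes of the cell cycle and of DNA replication had medians below 0, against 0.26 for all circRNAs. Of 43 circRNAs of mitosis and cell cycle genes (28 hosts) 0 rose and 2 fell (4.65%), with a median log2 fold change of -0.65. Of 59 of DNA replication and repair genes (34 hosts) 1 rose (1.69%) and 4 fell (6.78%), with a median of -0.42. Over all circRNAs 5.23% rose and 1.67% fell. DTL, the substrate receptor of the ubiquitin ligase that destroys the licensing factor CDT1, had 8.0, 6.96 and 17.0 counts at 120d and 37.8, 31.3 and 25.6 at 1d (-1.53, SE 0.37, adjusted p 0.00487). MCM6, a subunit of the replicative helicase, had 7.53, 8.12 and 7.75 counts at 120d and 13.9, 36.2 and 19.6 at 1d (-1.58, SE 0.48, adjusted p 0.0335). KIF11, the kinesin that separates the spindle poles, had 3.77, 4.06 and 3.39 counts at 120d and 11.9, 11.5 and 15.1 at 1d (-1.76, SE 0.55, adjusted p 0.037). The stages were apart for these genes. NCAPG2, a condensin subunit, had 3.30, 0 and 0.969 counts at 120d and 13.9, 9.88 and 9.04 at 1d (-2.78, SE 0.90, adjusted p 0.045), and without 120d replicate 1 its log2 fold change was -4.10. Outside these lists, TFDP2, the partner of E2F transcription factors, had 0.942, 4.64 and 5.81 counts at 120d and 15.9, 18.1 and 16.6 at 1d (-2.14, SE 0.57, adjusted p 0.0126). FANCL, a Fanconi anaemia ubiquitin ligase, had 133, 129 and 132 counts at 120d and 201, 227 and 190 at 1d (-0.65, SE 0.18, adjusted p 0.0198). FANCL had 0.0535 to 0.101 without any 1 of the 120d spleens or without 1d replicate 2. DTL kept its call with each pig left out. KIF11 lost it in each of these fits (adjusted p 0.0675 to 0.123), NCAPG2 in all but that without 120d replicate 1 (0.0685 to 0.174), and MCM6 without any 1 of the 120d spleens (0.0668 to 0.0915) or without 1d replicate 2 (0.28) or 3 (0.0508). TFDP2 lost it without 120d replicate 1 (0.0964) or 1d replicate 2 (0.0558). Per clean read DTL and MCM6 had log2 fold changes of 0.27 and 0.17.

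Of the host genes of the erythroid list (11 circRNAs of 4 genes) TFRC, the transferrin receptor that brings iron into erythroid precursors and other dividing cells, gave both circRNAs past the test. Both fell (18.2% of the list, against 1.67% of all circRNAs), and the list had a median log2 fold change of -0.71. CircRNA_11343 of TFRC had 0, 0 and 0.969 counts at 120d and 13.9, 9.88 and 7.53 at 1d (-4.52, SE 0.95, adjusted p 0.00118), kept its call with each pig left out. Only 120d replicate 3 had reads among the 120d spleens, so the size of this fall rests on that library. CircRNA_11322 had 0, 1.16 and 1.94 counts at 120d and 7.96, 16.5 and 4.52 at 1d (-3.10, SE 1.00, adjusted p 0.0442), and its adjusted p was 0.0524 to 0.258 in all leave-outs but that of 1d replicate 3. Its log2 fold change was -3.90 without 120d replicate 3 and -2.46 without 1d replicate 2. Summed over 3 circRNAs, TFRC had 5.65, 10.4 and 9.69 counts at 120d and 59.7, 52.7 and 31.6 at 1d (-2.56, SE 0.60, adjusted p 0.00784), and the stages did not overlap. The summed counts of the whole erythroid list were 87.0 to 92.5 in 120d spleens, against 118 to 165 in 1d spleens. TFRC made up much of this difference, with 5.65 to 10.4 counts at 120d and 31.6 to 59.7 at 1d. The other 9 circRNAs of the list did not pass, so the sums do not show a fall of erythroid genes as a set.

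The other large falls were of genes with diverse roles. GLIS3, a zinc finger transcription factor of endocrine and kidney development, had 7.06, 11 and 4.84 counts of circRNA_03546 at 120d and 33.8, 41.2 and 28.6 at 1d (-2.18, SE 0.39, adjusted p 0.000137). Its circRNA_03547, which holds exon 5 alone, had 4.71, 14.5 and 5.81 counts at 120d and 55.7, 29.6 and 48.2 at 1d (-2.43, SE 0.53, adjusted p 0.00548), and -3.05 without 120d replicate 2. SLC45A4, a membrane transporter, had 5.65, 4.64 and 4.84 counts at 120d and 27.9, 32.9 and 15.1 at 1d (-2.28, SE 0.51, adjusted p 0.00211). BTBD7, a BTB domain protein, had 4.24, 6.38 and 4.36 counts at 120d and 25.9, 36.2 and 16.6 at 1d (-2.37, SE 0.53, adjusted p 0.00238). Each of these kept its call with each pig left out. All 1d spleens lay above all 120d spleens, which the choice of the largest falls required. IGF1R, the receptor of insulin-like growth factor 1, had 27.3, 20.9 and 32.0 counts at 120d and 39.8, 79.0 and 66.3 at 1d (-1.21, SE 0.26, adjusted p 0.00126), and was the 1 of 2 circRNAs of the fetal growth list past the test. Another 6 of the large falls lost the call without 1 pig or more. They were CTSV, a cathepsin (-2.41, adjusted p 0.106 without 1d replicate 2), PLCL2 (-2.19, 0.16 without 1d replicate 3), SBSPON (-1.91, 0.0717 without 1d replicate 1), TMX1, DNM3 and the junction within GJC1 (circRNA_07591). TMX1, a thioredoxin of the endoplasmic reticulum (-2.01), had an adjusted p of 0.0812 when 120d replicate 1 was left out and of 0.0824 or 0.0969 when 1d replicate 1 or 2 was. DNM3, a dynamin (-2.07, and -3.34 without 120d replicate 3), had 0.0661 to 0.168 in the other 5 leave-outs. CircRNA_07591 (-2.41, and -3.27 without 120d replicate 2) had 0.0981 and 0.114 without 120d replicates 3 and 1, and 0.121 and 0.0528 without 1d replicates 1 and 2. CTSV had a log2 fold change of -1.74 without 1d replicate 2 and -3.11 without 120d replicate 3, and PLCL2 of -1.52 without 1d replicate 3.

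A large difference in counts was not called. CircRNA_30386, singled out after its values were seen, had 3.30, 6.38 and 6.78 counts at 120d and 209, 268 and 225 at 1d, with a log2 fold change of -5.40 (SE 2.09) and an adjusted p of 0.146 in the fit over all stages. With the libraries of these 2 stages alone its adjusted p was 1.91e-14 (log2 fold change -5.36, SE 0.25). Of the 15 libraries from 7d to 35d it was listed at 0 in 5 and above 100 counts in 7, up to 447, and at 180d it had 4.27, 5.03 and 12 counts. It spans 96.9 kb of chromosome 6 over 8 annotated genes, most of them annotated as copies of cationic amino acid transporter 3, so reads may be shared between near-identical copies and its position is uncertain.

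In the larger lists that follow, the counts are to be read against 5.23% of all circRNAs that rose and 1.67% that fell. Of 167 circRNAs of ubiquitin genes 9 rose (5.39%) and 1 fell (0.599%), with a median of 0.41. USP3, which removes ubiquitin from histones, had 94.2, 91.0 and 87.7 counts at 120d and 27.9, 31.3 and 27.1 at 1d (1.66, SE 0.25, adjusted p 1.13e-05). MYCBP2, a large ubiquitin ligase, had 33.9, 26.1 and 29.5 counts at 120d and 5.97, 0 and 4.52 at 1d (3.10, SE 0.58, adjusted p 0.000245, and 2.50 without 1d replicate 2). RNF115, a RING finger ligase, had 159, 143 and 124 counts at 120d and 65.7, 64.2 and 66.3 at 1d (1.12, SE 0.21, adjusted p 0.00035). Of 153 circRNAs of kinases and phosphatases 10 rose (6.54%) and 2 fell (1.31%), with a median of 0.31. STK17A, a kinase of the death-associated protein kinase family, had the smallest adjusted p among the named circRNAs, with 181, 184 and 183 counts at 120d and 57.7, 56.0 and 73.8 at 1d (1.54, SE 0.22, adjusted p 5.47e-06). Of 148 circRNAs of RNA processing genes 12 rose (8.11%) and 1 fell (0.676%), with a median of 0.34. PAN3, a subunit of a poly(A) nuclease, had 224, 215 and 232 counts at 120d and 83.6, 95.5 and 110 at 1d (1.21, SE 0.21, adjusted p 0.000115). DDX1, an RNA helicase, had a log2 fold change of 1.45 (SE 0.32, adjusted p 0.00207) and CNOT11, a subunit of the CCR4-NOT deadenylase, of 1.13 (SE 0.25, adjusted p 0.00217, and 0.0591 without 1d replicate 2).

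Of 115 circRNAs of endocytosis and vesicle transport genes 8 rose (6.96%) and 2 fell (1.74%), against 5.23% and 1.67% of all circRNAs, and their median of 0.26 was that of all circRNAs. SNX6, a sorting nexin of retromer transport, had 102, 114 and 159 counts at 120d and 47.8, 47.7 and 42.2 at 1d (1.45, SE 0.25, adjusted p 8.2e-05). RUBCNL, a regulator of autophagosome maturation, had 58.4, 71.9 and 40.7 counts at 120d and 15.9, 11.5 and 18.1 at 1d (1.89, SE 0.37, adjusted p 0.000555). Of 129 circRNAs of metabolism and membrane transport genes 10 rose (7.75%) and 2 fell (1.55%), with a median of 0.45. SLC38A9, the lysosomal arginine sensor, had 58.4, 44.7 and 41.2 counts at 120d and 11.9, 23 and 12.1 at 1d (1.6, SE 0.31, adjusted p 0.00039). Of 144 circRNAs of small GTPase regulators 5 rose (3.47%) and 3 fell (2.08%), no more than the share of all circRNAs for the rises, with a median of 0.32. DENND1B, a Rab exchange factor, had 21.2, 25.5 and 25.2 counts at 120d and 5.97, 9.88 and 3.01 at 1d (1.92, SE 0.46, adjusted p 0.0053, and 0.052 without 1d replicate 3). VAV3, a signalling protein downstream of lymphocyte receptors, had 7.53, 5.22 and 9.69 counts at 120d and was listed at 0 at 1d, at least 1.89-fold higher, with an adjusted p of 0.0237 that was 0.0565 without 120d replicate 3 and 0.0701 to 0.0874 without any 1 of the 1d spleens.

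The smaller lists are also to be read against the 5.23% of all circRNAs that rose and the 1.67% that fell. Of 73 circRNAs of the zinc finger family 3 rose (4.11%) and 4 fell (5.48%), with a median of 0.05. Both GLIS3 circRNAs and ZZZ3 (-1.16, SE 0.28, adjusted p 0.00447) were among the falls. Of 63 of actin, myosin and microtubule genes 4 rose (6.35%) and 2 fell (3.17%), with a median of 0.05. MYO9B, an unconventional myosin, had 21.7, 22.0 and 31.0 counts at 120d and 0, 8.23 and 7.53 at 1d (2.14, SE 0.52, adjusted p 0.00575, and 0.0667 without 1d replicate 1), and AFDN, a protein of cell junctions, had a log2 fold change of -1.43 (SE 0.32, adjusted p 0.00207, and 0.129 without 1d replicate 3). Of 51 of centrosome and cilium genes 2 rose (3.92%), both of CEP63, and 3 fell (5.88%), with a median of 0.02. CircRNA_10293 of CEP63 had an adjusted p of 0.0638 without 1d replicate 1 and 0.0801 without 1d replicate 2. Of 27 of chaperones 1 rose and 3 fell (median 0.03), a pair of the falls being CCT3. Of 48 of widely conserved circRNA hosts 0 rose and 1 fell (2.08%), with a median of -0.14. The fall was HIPK3 circRNA_20737 (-1.38, SE 0.44, adjusted p 0.0419, and 0.0713 to 0.163 with any 1 pig left out). Of 8 circRNAs of stromal, endothelial and extracellular matrix genes 0 passed (median -0.99), and no circRNA of megakaryocyte, pancreas acinar or fat cell genes was in the table. With library totals in place of TMM the medians of the endocytosis, T and NK cell, chromatin, zinc finger, actin, translation, chaperone and centrosome lists lay at or below 0, and those of the innate signalling, B cell, metabolism, ubiquitin, RNA processing, GTPase and kinase lists stayed above it.

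**Figure D3:**
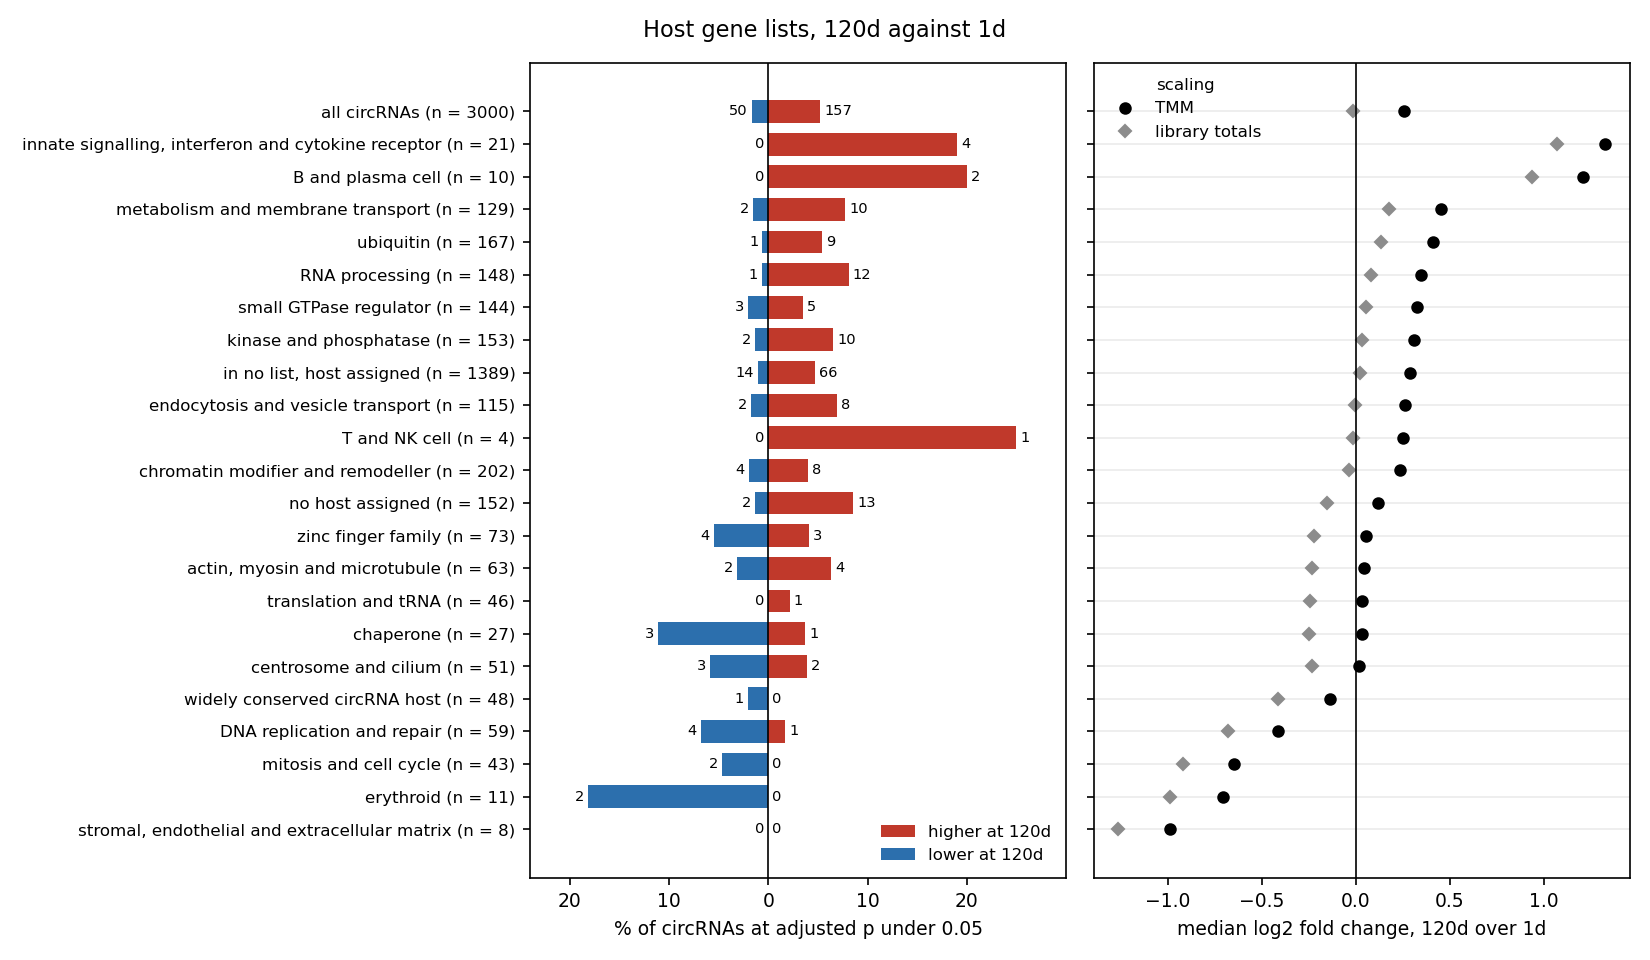
The left panel gives the percentage of circRNAs of each host gene list that were higher (red, to the right) or lower (blue, to the left) at 120d at an adjusted p under 0.05, with their numbers, and the right panel the median log2 fold change of 120d over 1d with TMM (black circles) or library totals (grey diamonds). The innate signalling list has the highest median, 1.33 with TMM, and the stromal list the lowest, -0.99.

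In 18 host genes 2 or more circRNAs were called, 38 circRNAs in all, and in 0 genes were circRNAs called in both directions. PRPSAP2, which binds the enzyme of phosphoribosyl pyrophosphate synthesis, had 10 circRNAs, of which 3 rose. CircRNA_08862, with exons 2 to 4, had 97.9, 92.8 and 93.0 counts at 120d and 31.9, 34.6 and 34.7 at 1d (1.48, SE 0.26, adjusted p 8.5e-05). CircRNA_08861, with exons 2 to 5, had 59.8, 71.9 and 60.5 at 120d and 23.9, 18.1 and 18.1 at 1d (1.68, SE 0.32, adjusted p 0.00035). The shorter ring took 28.5%, 25.7% and 27.6% of the PRPSAP2 back-splice reads at 120d and 21.3%, 22.6% and 18.9% at 1d. CircRNA_08857, with exons 2 to 7, had a log2 fold change of 0.62 (SE 0.24) that did not pass, and its share was 20.3%, 22.3% and 23.4% at 120d and 28.0%, 26.9% and 35.2% at 1d, so the shares of these isoforms lay apart in opposite directions. The third PRPSAP2 call, circRNA_08855 (1.97, adjusted p 0.0426), was lost without 120d replicate 2 (0.0812) or 3 (0.123) and without 1d replicate 1 (0.199) or 2 (0.12), and its log2 fold change was 2.85 without 1d replicate 3. Such shares within a host gene do not depend on the scaling of the library, and they are given as values with no test. They are not independent of the calls, since a gain of 1 ring is a loss of others in the same host. Among hosts with 2 or more circRNAs, 70 of the 83 circRNAs called higher had a higher share at 120d. Of the 22 called lower, 19 had a lower share. The calls were made on these same libraries, so both tallies are largely set by the choice and are no further evidence. B4GALT6 had 0 back-splice reads in each 1d library, so its circRNAs have no share at 1d.

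OSBPL1A, a sterol-binding protein, had 7 circRNAs and a like split. CircRNA_31590, with exons 5 to 7, took 29.9%, 35.2% and 28.4% of its reads at 120d and 21.7%, 27.3% and 13% at 1d, and its log2 fold change of 1.59 had an adjusted p of 0.0635 without 120d replicate 2 and 0.104 without 1d replicate 3. CircRNA_31575, with exons 5 to 15, took 9.20%, 10.6% and 7.09% at 120d and 17.4%, 22.7% and 21.7% at 1d. CEP63, a centrosome protein, moved the other way in shares: its main ring circRNA_10296 rose (231, 218 and 231 counts at 120d, 71.7, 114 and 143 at 1d, log2 fold change 1.04, SE 0.19, and 0.82 without 1d replicate 1) but took 78.7%, 76.4% and 79.9% of the CEP63 reads at 120d and 87.8%, 85.2% and 81.2% at 1d. In PTBP3, an RNA-binding splicing regulator, circRNA_04069 rose (91.3, 88.7 and 71.7 counts at 120d, 17.9, 37.9 and 31.6 at 1d, log2 fold change 1.5, SE 0.26) with shares that overlapped, 68.6% to 73.5% at 120d and 60.0% to 69.7% at 1d. In TESK2, a testis-associated kinase, circRNA_32295 rose by 1.31 (SE 0.26) and circRNA_32293 by 1.14 (SE 0.30, adjusted p 0.0148, but 0.194 when 120d replicate 1 was left out and 0.0824 or 0.108 when 1d replicate 1 or 2 was).

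CCT3, a subunit of the chaperonin that folds actin and tubulin, had 7 circRNAs and 2 fell. CircRNA_26742 had 46.1, 48.1 and 57.6 counts at 120d and 117, 82.3 and 124 at 1d (-1.09, SE 0.22, adjusted p 0.000666, and -0.95 without 1d replicate 3), and circRNA_26745 had 22.1, 21.5 and 23.7 at 120d and 63.7, 60.9 and 45.2 at 1d (-1.32, SE 0.28, adjusted p 0.00128). Their shares of the CCT3 reads overlapped, 41.9% to 47.7% at 120d and 41.3% to 56.6% at 1d for circRNA_26742. In ALMS1, a centrosome protein, 2 of 7 circRNAs fell. CircRNA_24166 was listed at 0 at 120d and had 0, 6.58 and 7.53 counts at 1d, at least 3.98-fold lower by the 1d mean (adjusted p 0.00741), and kept its call with each pig left out. Since 1d replicate 1 was at 0 too, the stages overlapped, and the fall rests on few reads in 1d replicates 2 and 3. The sum over ALMS1 was 23.5, 20.9 and 30.5 counts at 120d and 67.7, 85.6 and 51.2 at 1d (-1.53, SE 0.31, adjusted p 0.000626). Summed per host gene, 84 of 1675 genes were higher at 120d (5.01%) and 47 lower (2.81%), 7.82% in either direction, and of these 10 and 16 had no circRNA called by itself.

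The remaining pairs of calls were HERC6 (circRNA_36152 and circRNA_36156), PPP3CC, B4GALT6, FRMD4B, MYO9A and SLC35D2, all higher, and PSD3, lower. CircRNA_18418 and circRNA_18419 of PSD3, a regulator of ARF6, each lost the call without 120d replicate 1 (adjusted p 0.147 and 0.102) and without 120d replicate 2 (0.0824 and 0.141), among other pigs. HERC6, a ligase induced by interferon, had 25.9, 28.4 and 44.1 counts at 120d and 7.96, 4.94 and 6.03 at 1d when its 3 circRNAs were summed (2.29, SE 0.54, adjusted p 0.00467). PPP3CC, the gamma catalytic subunit of calcineurin, had 25.9, 23.2 and 19.4 at 120d and 3.98, 0 and 0 at 1d (4.10, SE 0.82, adjusted p 0.00055). Both sums kept their call with each pig left out. LRRK2, a kinase of myeloid and B cells among others, LPXN (leupaxin), MKL1 (a coactivator of serum response factor), LOC106506475 and LOC106506781 complete the 12 largest rises. LOC106506475, an uncharacterized gene, had 42.4, 52.2 and 53.3 counts at 120d and 11.9, 16.5 and 3.01 at 1d (2.25, SE 0.37, adjusted p 3.8e-05). LPXN had 29.2, 33.1 and 1.94 counts at 120d and was listed at 0 at 1d. Its 120d mean was at least 5.42-fold higher, but 120d replicate 3 lay below the 1d floor of 3.95, so this bound rests on the other 120d pigs. The adjusted p of LPXN was 0.0558 without 1d replicate 2 and 0.306 with the libraries of these stages alone. MKL1 (2.44, SE 0.60) had an adjusted p of 0.0615 without 1d replicate 1 and a log2 fold change of 3.77 without 1d replicate 2, and LRRK2 (2.45, SE 0.62) had an adjusted p of 0.0536 without 120d replicate 2. When 1d replicate 2 was left out the log2 fold change of LRRK2 was 3.38, and when 1d replicate 3 was left out it was 1.83 (adjusted p 0.0723). The junction within LOC106506781 (circRNA_19735) had 24, 21.5 and 14.0 counts at 120d and 0, 0 and 4.52 at 1d (3.48, SE 0.73, adjusted p 0.00106), where 1d replicate 3 was the only 1d spleen with reads.

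CircRNA_21767 of PAPD4, which the study followed up, has exons 11 to 15 of this poly(A) polymerase gene. It had 10.8, 11.6 and 17.9 counts at 120d and 0, 8.23 and 3.01 at 1d. The stages did not overlap, but the log2 fold change of 1.75 (SE 0.63) did not pass the test (adjusted p 0.0776).

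The circRNAs called higher had shorter rings than those called lower. The spliced length, summed over the annotated exons between the ends, had a median of 316 nt for the circRNAs called higher, 731.5 nt for those called lower and 431 nt for all. In the shortest length class (70 to 322 nt) 65 were called higher and 4 lower, and in the longest (657 to 4050 nt) 4 were called higher and 23 lower. The median log2 fold change was 0.68, 0.36, 0.23 and -0.25 from the shortest length class to the longest, 0.41, 0.09, -0.04 and -0.53 with library totals, and 0.40, 0.05, -0.05 and -0.60 with thinned counts. Between 180d and 7d, which share no pig with 120d and 1d, the medians were 0.65, 0.29, 0.15 and -0.30. The median TMM-scaled count of the length classes lay close, from 6.70 to 7.09. From the lowest to the highest of 4 classes of GC content of the ring the medians were 0.31, 0.21, 0.31 and 0.18, with no steady order. The numbers called lower at 120d went up over these classes (2, 10, 13 and 17), and the calls higher numbered 30, 32, 42 and 22. The median GC content was 43.5% for the circRNAs called higher, 47.3% for those called lower and 43.3% for all. RNA integrity and the size selection of the libraries were not in the files, and their part in this pattern was not tested.

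**Figure D4:**
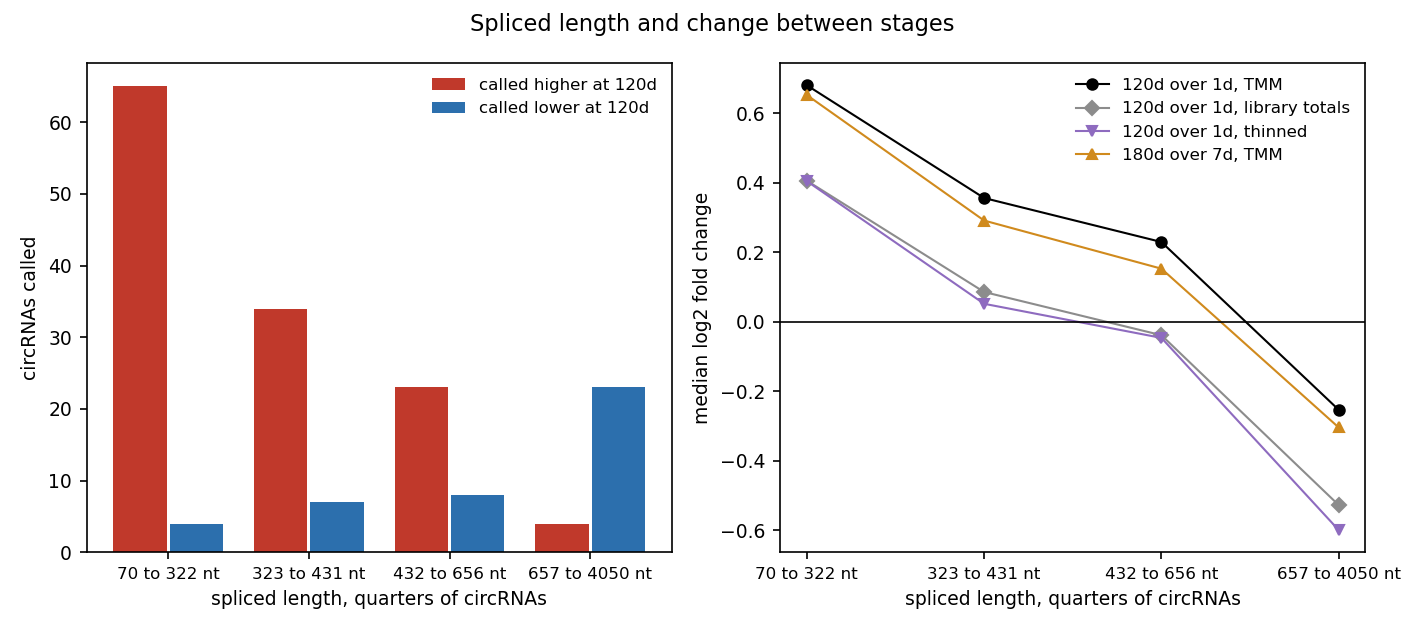
The left panel counts the circRNAs called higher (red) and lower (blue) at 120d in 4 classes of spliced length with near-equal numbers, and the right panel gives the median log2 fold change of each class under different scalings and in 180d over 7d. In each series the median falls from the shortest to the longest class, for example from 0.68 to -0.25 with TMM.

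In the spleens of 180d and 7d, which are other pigs but share the fit, 62 of the 139 circRNAs called higher at 120d were also called higher at 180d against 7d, where 7.13% of all circRNAs were, and 31 of the 44 called lower were called lower, where 5.5% of all were. None was called in the other direction. Among these were CD96 (2.72, SE 0.51, adjusted p 0.00013), CTSS (1.91, SE 0.35, adjusted p 7.42e-05), STK17A (1.52, SE 0.23, adjusted p 2.95e-06), DTL (-3.38, SE 0.39, adjusted p 1.52e-08) and circRNA_11343 of TFRC (-4.63, SE 0.85, adjusted p 7.53e-05). At the adjusted p alone, 18 of 43 circRNAs of the mitosis list fell at 180d against 7d and 0 rose. In the DNA replication list 16 of 59 fell and 0 rose. Of all 3000 circRNAs, 175 fell at this threshold in 180d against 7d, without a 2-fold minimum, and a larger number rose. MYCBP2 (1.35, SE 0.49, adjusted p 0.0557), LPXN (1.13, adjusted p 0.414), AFDN (-0.52, adjusted p 0.356) and circRNA_03547 of GLIS3 (-1.37, adjusted p 0.107) did not pass there, and circRNA_18419 of PSD3 had a log2 fold change of 0.43 (adjusted p 0.713).

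Over the 8 stages the circRNAs called higher had a median log2(TMM-scaled count + 2) of 2.80, 3.38, 3.90, 4.12, 4.19, 4.33, 4.6 and 4.53 (1d, 7d, 14d, 21d, 28d, 35d, 120d, 180d). The circRNAs called lower had 4.56, 4.76, 4.13, 4.06, 3.83, 3.52, 3.03 and 2.74. Both sets were chosen on 120d and 1d, so only the other 6 stages add to the calls. At 7d, 14d, 35d and 180d DTL averaged 61.4 ± 2.05, 31.9 ± 9.46, 19.7 ± 1.01 and 5.92 ± 1.35 TMM-scaled counts, and CD96 averaged 6.34 ± 5.92, 13.7 ± 10.8, 24.7 ± 12.4 and 42.7 ± 7.48 (SD, n = 3 each).

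**Figure D5:**
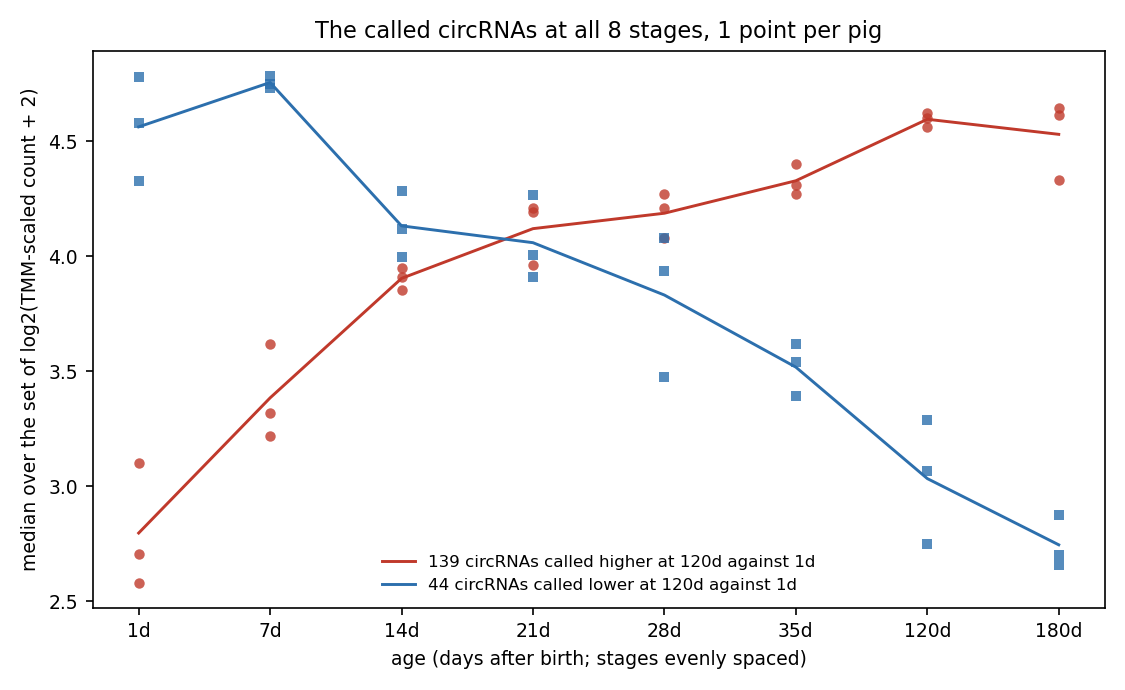
The median over each set of log2(TMM-scaled count + 2) at the 8 stages, with 1 point per pig and lines through the stage means, for the 139 circRNAs called higher (red circles) and the 44 called lower (blue squares) at 120d against 1d. The stage means of the higher set go up at each stage to 4.6 at 120d and stand at 4.53 at 180d, and those of the lower set are highest at 7d, 4.76, and lowest at 180d, 2.74.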

How the data were processed

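Total RNA of 24 whole spleens (8 stages, 3 pigs each) was sequenced by the authors, who trimmed the reads (FastQC and cutadapt are named in the submitters' processing notes, as is TopHat2), mapped them to Sscrofa11.1 and called circRNAs with CIRI2 from reads across GT-AG junctions. The authors deposited raw counts of back-splice reads per circRNA and library, not pooled and not normalized; the rule that chose these 3000 circRNAs is not given in the sources used here, and 8.72% of the counts were 0. Clean reads, valid bases and GC content per library came from the supplement of the study. 

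Counts were fitted with edgeR 4.0.16 (R 4.3.3; TMM, robust quasi-likelihood, a coefficient per stage over all 24 libraries), with Benjamini-Hochberg adjustment over the 3000 circRNAs and a coefficient of biological variation of 0.300. Calls needed an adjusted p under 0.05 and a 2-fold change, and lists were read at the adjusted p alone. TMM-scaled counts are relative to the geometric mean library. Where a stage was at 0, folds were set against 7 counts summed over its 3 libraries, since counts of 1 do not occur. Host genes came from the RefSeq annotation of Sscrofa11.1, with both ends within 1 base of exon ends. The fit was tested on simulated data. Named circRNAs were the 12 largest rises and falls with a mean of at least 10 and libraries apart, 3 per list by p, the 5 most abundant calls, all circRNAs of hosts with 2 or more calls, and circRNA_21767. The circRNAs and lists were chosen with earlier results of these data known. Alternatives were DESeq2 1.42.0 (size factors, Wald test), library totals, clean reads, filterByExpr, thinned counts, the libraries of the 2 stages only, valid bases or GC content as covariate, only libraries that kept 0.96 or more of their bases, the replicate number as block, and each pig left out. Python 3.11.15, pandas 2.3.3, scipy 1.17.1 and matplotlib 3.10.9 were used for the rest. Differences between pigs include any between their libraries, since each pig has 1. A marker looked for is not reported here.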

Additional observations from a re-analysis of the deposited data

How the results depend on the processing

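The number of circRNAs called higher at 120d (139) was 88 with DESeq2 size factors, 68 with library totals, 1969 per clean read, 90 with filterByExpr, 46 with thinned counts, 74 with GC content and 59 with valid bases as covariate, and 40 among libraries of at least 0.96 valid bases. The number called lower (44) was 85 with the DESeq2 Wald test, 3 per clean read, 26 with GC content, 20 with valid bases and 16 among libraries of at least 0.96 valid bases. For summed host genes the higher calls (84) were 1257 per clean read, 54 with GC content, 41 with valid bases, 44 thinned and 30 at 0.96, and the lower calls (47) were 0, 28 and 23 with the first 3 of these and 20 at 0.96. At the adjusted p alone, higher circRNAs (157) were 1970 per clean read, 79 with GC content, 63 with valid bases, 77 with library totals, 53 thinned and 41 at 0.96, and lower ones (50) were 93 with the Wald test, 3 per clean read, 30 with GC content, 20 with valid bases, 77 with library totals and 16 at 0.96. Of the calls that also passed in 180d vs. 7d, the higher ones (62) were 116 per clean read, 28 thinned and 16 at 0.96, and the lower ones (31) were 16 per clean read and 16 at 0.96. Thinning lowers the depth. The 0.96 limit lowers the number of libraries and leaves only replicate 1 at 120d and replicate 1 at 180d. The counts at 0.96 thus rest on 1 library of the later stage. For the other settings the cause was not tested.

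With 1 pig left out at a time, the calls ran from 70 to 142 higher and 21 to 34 lower, the host genes from 55 to 118 higher and 27 to 42 lower, the adjusted p alone from 75 to 147 higher and 23 to 37 lower, and those that passed in 180d vs. 7d from 49 to 59 higher and 27 to 30 lower. Same-numbered pigs of 120d and 1d did not deviate together (correlations -0.0006, 0.0006 and 0.0039), so the numbers do not pair them, and with the replicate block the calls were 135 higher and 42 lower.

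Per clean read the log2 fold change turned above 0 for circRNA_00031 (0.31), circRNA_02314 (0.56), circRNA_02774 (1.55), circRNA_15205 (0.17), circRNA_16029 (1.61), circRNA_18418 (0.24), circRNA_18419 (0.092), circRNA_20737 (0.39), circRNA_24503 (1.12), circRNA_26742 (0.68), circRNA_26744 (1.21), circRNA_26745 (0.46), circRNA_31575 (1.54), circRNA_31822 (0.61), circRNA_34502 (0.34) and circRNA_38617 (0.27), and with thinned counts circRNA_09986 stood at 0. Of the 87 named circRNAs that were called, 20 kept an adjusted p under 0.05 and their direction in all alternatives and 39 with every pig left out. Of 1d libraries with 16273 to 23752 back-splice reads, low circRNAs give few reads, which limits the precision of folds there.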
